A study of Homo sapiens with 17 samples.

Results

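The 10 genes described here are the coactivators YAP1 and WWTR1 (TAZ), the DNA-binding partners TEAD1 and TEAD4, and the targets CCN1 (CYR61), CCN2 (CTGF), ANKRD1, AMOTL2, AXL and PTPN14. They were taken by name as probe sets whose platform annotation gave exactly 1 symbol, with the brightest kept per gene, and each of the 10 had 1 probe set among 17958 genes so measured. Expression was measured on 17 Affymetrix arrays of A549 and H2122, human lung adenocarcinoma lines that lack functional LKB1, the kinase encoded by STK11. In each line the retroviral vector pBABE carried wild-type LKB1, the kinase-dead mutant LKB1-K78I, or no insert. All groups were selected in 1 µg/mL puromycin and grown in 5% serum. There were 3 arrays per group and 2 for H2122 pBABE. The labels do not say whether replicates came from separate cultures. The p-values therefore describe array-to-array spread, which may be technical, and precision is limited by how few arrays there are.

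YAP and TAZ are coactivators without a DNA-binding domain of their own, and they reach their target genes through TEAD factors. The Hippo kinases phosphorylate YAP and TAZ and hold them outside the nucleus. LKB1 is known to restrain YAP through the MARK kinases, which act on polarity and Hippo proteins. The arrays measured mRNA and so carry no reading of YAP phosphorylation or location. CCN1 and CCN2 encode secreted matricellular proteins and ANKRD1 a nuclear and sarcomeric ankyrin repeat protein, and these genes are commonly read as YAP output. AMOTL2 and PTPN14 encode proteins that bind and restrain YAP, and AXL a receptor tyrosine kinase.

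STK11 on the arrays checks the labels for the presence of an insert, and it cannot tell wild-type LKB1 from K78I. In A549 it stood at 9.42, 10.23 and 9.62 on LKB1 arrays, at 10.54, 7.14 and 10.42 on K78I arrays, and at 6.88, 7.38 and 10.52 on pBABE arrays (log2, replicates 1 to 3). The arrays labelled K78I replicate 2 and pBABE replicate 3 thus go against their labels, and every A549 comparison below counts them under those labels. In H2122 it stood at 11.20 to 11.35 on LKB1 arrays, 11.26 to 11.31 on K78I arrays, and 6.22 and 6.33 on pBABE arrays. The source name of 3 H2122 arrays gives another construct than the title, namely LKB1 replicate 3, K78I replicate 3 and pBABE replicate 2. Titles were followed. The alveolar markers NKX2-1, NAPSA, SFTPB, SFTPC and SFTPD had low group means in both lines, between 4.0 and 5.85. Of 6 epithelial markers, KRT8, KRT18 and KRT7 had group means between 11.6 and 13.1 in both lines and CDH1 between 9.64 and 10.86. KRT19 and EPCAM were lower in A549 than in H2122, by −5.85 and −4.29.

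The promoters of 3 genes whose mRNA rose with LKB1 are shown because they hold the TEAD core motif GGAATG within the 250 bases before the start of the gene. Sequences are from RefSeq, GRCh38.p14, on the gene's strand, with the motif or its reverse complement CATTCC in capitals. The CCN2 window is chr6:131951373-131951622, the ANKRD1 window chr10:90921088-90921337 and the PTPN14 window chr1:214551603-214551852, all on the minus strand.
CCN2: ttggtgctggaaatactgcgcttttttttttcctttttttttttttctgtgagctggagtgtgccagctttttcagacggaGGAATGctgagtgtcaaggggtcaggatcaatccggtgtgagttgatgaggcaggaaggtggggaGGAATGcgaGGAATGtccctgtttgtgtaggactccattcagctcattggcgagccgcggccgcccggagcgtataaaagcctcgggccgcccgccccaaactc
ANKRD1: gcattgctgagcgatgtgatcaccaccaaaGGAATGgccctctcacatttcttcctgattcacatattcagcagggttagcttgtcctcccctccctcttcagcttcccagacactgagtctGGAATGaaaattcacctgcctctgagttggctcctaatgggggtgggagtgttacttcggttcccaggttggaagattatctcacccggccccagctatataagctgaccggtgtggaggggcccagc
PTPN14: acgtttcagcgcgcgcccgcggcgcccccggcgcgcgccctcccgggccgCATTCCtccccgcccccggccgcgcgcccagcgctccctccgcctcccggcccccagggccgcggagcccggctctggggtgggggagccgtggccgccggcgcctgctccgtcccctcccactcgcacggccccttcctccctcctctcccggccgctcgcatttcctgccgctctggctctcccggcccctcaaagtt
CCN2 held 3 copies, with first bases 169, 104 and 95 bases before the start. ANKRD1 held 2 copies, with first bases 220 and 128 bases before the start. PTPN14 held 1 copy, on the other strand, with its first base 200 bases before the start. Windows were at hand for 7 of the 10 genes, 10 windows in all. Of these 10 windows 6 held a copy, against 11.9% of 35116 promoter windows of the same length, both strands searched. The genes were taken by name as YAP and TEAD factors and targets, so this share is not a result of the arrays. The motif was also found at YAP1, AMOTL2 and AXL, which did not rise. For AMOTL2 and AXL it lay only in a window inside the gene, before a later start, and not in the window before the gene. WWTR1, which also rose in A549, held 0 copies in either of its 2 windows. Both lie inside the gene as placed here, so the bases before its outermost start were not searched. Of all windows, 0.94% held 2 or more copies. A match in a window is a description of the letters, not of TEAD binding.

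In A549, WWTR1 mRNA rose with LKB1, while YAP1, the other coactivator, did not pass the test. WWTR1 (transcript cluster 8091422, gene at chr3:149517235-149724788 in GRCh38.p14) had log2 levels of 10.11, 10.26 and 10.41 on LKB1 arrays, 9.49, 9.15 and 9.46 on K78I arrays, and 8.80, 9.32 and 9.53 on pBABE arrays. All LKB1 arrays lay above every control array. The difference from the mean of the controls was 0.97 ± 0.18 (SE), a fold of 1.96 (limma, adjusted p = 0.00282). YAP1 (chr11:102110447-102233424) had 9.81, 9.87 and 9.89 on LKB1 arrays, 9.79, 10.41 and 9.74 on K78I arrays, and 9.60, 9.60 and 9.73 on pBABE arrays. LKB1 arrays lay inside the range of the controls. The difference was 0.05, with a 95% interval of −0.27 to 0.36 (limma, adjusted p = 0.907).

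The TEAD factors did not pass the test in either line. TEAD1 (chr11:12674421-12944737) had 10.27, 10.30 and 10.20 on A549 LKB1 arrays, 10.09, 10.52 and 10.12 on K78I arrays, and 10.19, 10.30 and 10.08 on pBABE arrays. The groups overlap throughout, and the difference of 0.04 had an interval of −0.18 to 0.26. TEAD4 (chr12:2959397-3040676) had 7.93, 8.38 and 8.06 on A549 LKB1 arrays, 8.46, 7.70 and 8.15 on K78I arrays, and 8.06, 8.41 and 8.29 on pBABE arrays. Its difference was −0.05 with an interval of −0.42 to 0.32. In H2122, TEAD4 stood at 7.63, 7.39 and 7.68 on LKB1 arrays, 8.25, 8.03 and 8.16 on K78I arrays, and 8.14 and 7.47 on pBABE arrays. The LKB1 arrays lay below every K78I array but overlapped pBABE, and the difference from the mean of the controls was −0.41 ± 0.18 (SE; limma, adjusted p = 0.225).

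Among the targets in A549, CCN2, ANKRD1 and PTPN14 rose. CCN2 (cluster 8129562, chr6:131948176-131951372) had 10.52, 10.69 and 10.61 on LKB1 arrays, 9.09, 9.24 and 9.51 on K78I arrays, and 8.87, 7.68 and 8.52 on pBABE arrays. The groups stand in that order with no overlap between LKB1 arrays and either control. The fold over the mean of the controls was 3.45, a difference of 1.79 ± 0.30 (SE; limma, adjusted p = 0.0015). ANKRD1 (cluster 7934979, chr10:90912096-90921087) had 8.65, 8.19 and 8.51 on LKB1 arrays, 6.71, 8.93 and 8.0 on K78I arrays, and 6.71, 4.98 and 5.86 on pBABE arrays. LKB1 arrays lay above every pBABE array but below the array labelled K78I replicate 2. Its difference was 1.58 ± 0.40 (SE; limma, adjusted p = 0.0214), and leaving out LKB1 replicate 1 or 3 gave adjusted p = 0.101 and 0.0945. The ANKRD1 call was also lost with each line fitted alone and with pooled controls (limma, adjusted p = 0.106 and 0.102). PTPN14 (cluster 7924207, chr1:214348700-214551602) had 8.96, 9.44 and 9.04 on LKB1 arrays, 8.36, 8.88 and 8.12 on K78I arrays, and 8.03, 8.02 and 8.42 on pBABE arrays. All LKB1 arrays lay above every control array, and the difference was 0.84 ± 0.16 (SE; limma, adjusted p = 0.00435).

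Without the 2 A549 arrays at odds with their STK11 level, left out after seeing the data, all 4 genes that rose in A549 still passed. CCN2 then differed by 1.82, ANKRD1 by 1.85, WWTR1 by 0.99 and PTPN14 by 1.01 (limma, adjusted p = 0.00306, 0.00453, 0.00239 and 0.000234).

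CCN1, AMOTL2 and AXL did not pass in A549. CCN1 (chr1:85580761-85583950) had 8.37, 8.35 and 7.79 on LKB1 arrays, 8.19, 10.67 and 8.28 on K78I arrays, and 8.75, 6.98 and 7.23 on pBABE arrays. The controls spread widely around the LKB1 arrays, and the difference of −0.18 had an interval of −1.28 to 0.93. AMOTL2 (chr3:134355345-134375417) had 8.17, 7.65 and 7.59 on LKB1 arrays, 7.72, 8.72 and 8.04 on K78I arrays, and 8.11, 7.43 and 7.14 on pBABE arrays, with a difference of −0.06 (interval −0.54 to 0.42). AXL (chr19:41219223-41261766) had 9.90, 10.25 and 10.14 on LKB1 arrays, 10.13, 11.50 and 10.25 on K78I arrays, and 10.34, 10.24 and 10.14 on pBABE arrays, with a difference of −0.33 (interval −0.88 to 0.21). The groups of both genes overlap. In all, 4 of the 10 genes rose in A549, beside 5.49% of all 17958 genes, and 0 fell, beside 2.95%. For 3 of the 10, WWTR1, CCN2 and PTPN14, LKB1 arrays lay wholly above the controls, beside 8.46% of all genes.

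**Figure D1:**
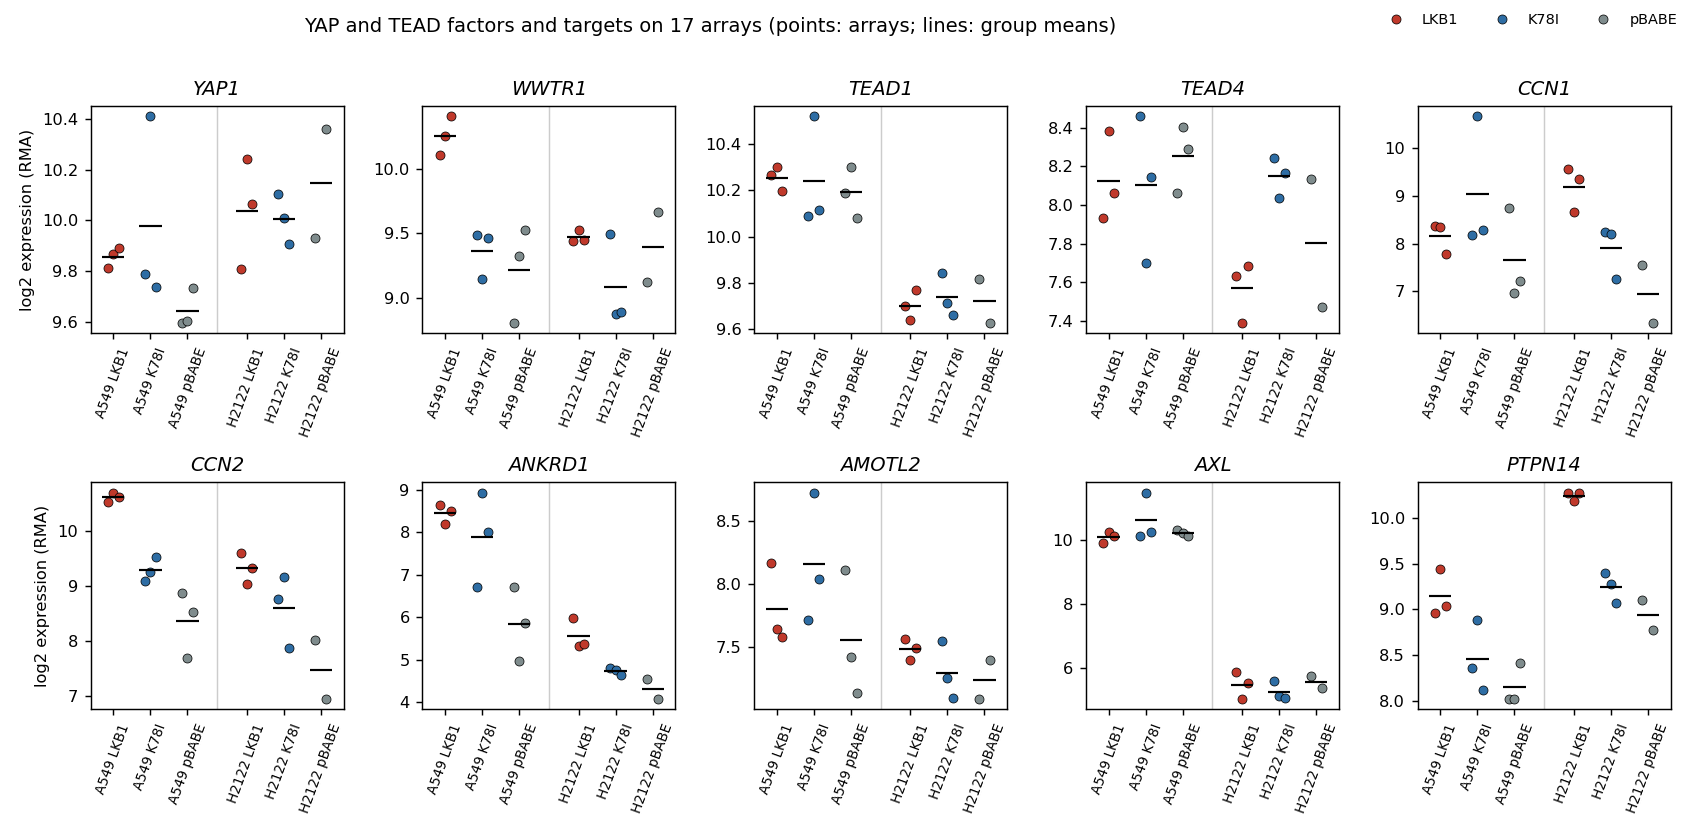
Log2 expression (vertical axis) of the 10 genes on each array (points) with group means (lines), LKB1, K78I and pBABE from left to right in A549 and then H2122. LKB1 arrays lie wholly above the controls for WWTR1, CCN2 and PTPN14 in A549 and for PTPN14, CCN1 and ANKRD1 in H2122, while the groups of YAP1 and of TEAD1 overlap within each line when LKB1 is set against both controls.

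In H2122, PTPN14 and CCN2 rose, and CCN1 and ANKRD1 were higher on every LKB1 array without passing the test. PTPN14 had 10.28, 10.18 and 10.27 on LKB1 arrays, 9.40, 9.28 and 9.07 on K78I arrays, and 9.11 and 8.78 on pBABE arrays. The LKB1 arrays stand apart from all controls, by 1.15 ± 0.17 (SE), a fold of 2.22 (limma, adjusted p = 0.000632). CCN2 had 9.60, 9.03 and 9.32 on LKB1 arrays, 8.76, 9.16 and 7.86 on K78I arrays, and 8.01 and 6.94 on pBABE arrays. K78I replicate 2 lay inside the range of the LKB1 arrays. The difference was 1.28 ± 0.31 (SE), a fold of 2.43 (limma, adjusted p = 0.0186). The limma adjusted p became 0.105 without LKB1 replicate 1 and 0.0714 without LKB1 replicate 3. Without pBABE replicate 2, which leaves 1 pBABE array, the call was also lost.

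CCN1 had 9.57, 8.67 and 9.35 on H2122 LKB1 arrays, 8.25, 8.21 and 7.27 on K78I arrays, and 7.56 and 6.34 on pBABE arrays. LKB1 arrays lay above every control array, and the difference was 1.76 ± 0.54 (SE; limma, adjusted p = 0.0645). A gene's spread was estimated jointly over the 6 groups, and without the A549 array labelled K78I replicate 2 the same difference had adjusted p = 0.00983. ANKRD1 had 5.99, 5.32 and 5.37 on LKB1 arrays, 4.81, 4.76 and 4.63 on K78I arrays, and 4.55 and 4.08 on pBABE arrays. These also did not overlap, with a difference of 1.03 ± 0.41 (SE; limma, adjusted p = 0.171). The control arrays and LKB1 replicates 2 and 3 lay below the array medians, where with no detection calls background cannot be told from signal. WWTR1 stood at 9.44, 9.53 and 9.45 on LKB1 arrays, 9.49, 8.87 and 8.89 on K78I arrays, and 9.12 and 9.67 on pBABE arrays, which overlap, and differed by 0.23 (interval −0.16 to 0.63). YAP1 ranged from 9.81 to 10.24 on LKB1 arrays, 9.91 to 10.11 on K78I arrays and 9.93 to 10.36 on pBABE arrays, a difference of −0.04 (interval −0.36 to 0.29). TEAD1 ranged from 9.64 to 9.77 on LKB1 arrays, 9.66 to 9.84 on K78I arrays and 9.63 to 9.82 on pBABE arrays, a difference of −0.03 (interval −0.26 to 0.20). The constructs overlap for both genes. AMOTL2 ranged from 7.40 to 7.56 on LKB1 arrays, 7.10 to 7.55 on K78I arrays and 7.09 to 7.40 on pBABE arrays, and AXL from 5.02 to 5.86, 5.06 to 5.58 and 5.38 to 5.75 on the same groups. Their differences were 0.21 and 0.06, with intervals of −0.29 to 0.72 and −0.51 to 0.63. In all, 2 of the 10 genes rose in H2122, beside 4.99% of all genes, and 0 fell, beside 2.29%. LKB1 arrays lay wholly above the controls for PTPN14, CCN1 and ANKRD1, 3 of the 10, beside 8.54% of all genes.

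The source name bears on the H2122 values. With the 3 arrays grouped by source name, the H2122 differences of CCN2 and PTPN14 were 0.01 and 0.38 (limma, adjusted p = 0.997 and 0.696). Without the 3 arrays, which leaves 1 pBABE array in H2122, the differences were 0.83 and 1.01, and CCN2 did not pass. STK11 on the arrays titled pBABE replicate 2 and K78I replicate 3 goes with their titles. On the array titled LKB1 replicate 3 it was 11.26, which does not tell wild-type LKB1 from K78I.

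Against K78I alone, which carries the transcript without the kinase activity, A549 CCN2 rose by 1.33 ± 0.34, WWTR1 by 0.90 ± 0.20 and PTPN14 by 0.69 ± 0.19 (SE; limma, adjusted p = 0.0361, 0.019 and 0.0463). These were 3 of 10 genes, beside 3.56% of all genes higher. With each line fitted alone PTPN14 did not pass against K78I (limma, adjusted p = 0.157). ANKRD1 differed by 0.57 ± 0.46 and CCN1 by −0.87 ± 0.60 (SE; limma, adjusted p = 0.556 and 0.468). These calls were lost on leaving out single arrays. WWTR1 lost its call without A549 LKB1 replicate 2 or 3 or the array labelled K78I replicate 2 (adjusted p 0.0565 to 0.0932). CCN2 lost it without any A549 LKB1 array, A549 K78I replicate 1 or 2, or H2122 LKB1 replicate 3 (adjusted p 0.053 to 0.114). PTPN14 lost it without any LKB1 array of either line, A549 K78I replicate 1 or 3, any H2122 K78I array or A549 pBABE replicate 2, which makes 12 arrays (adjusted p 0.0572 to 0.175). Without both A549 arrays at odds with STK11, PTPN14 passed against K78I at 0.90 and CCN2 and WWTR1 did not (limma, adjusted p = 0.0055, 0.109 and 0.0605). In H2122 PTPN14 rose by 0.99 ± 0.19 against K78I (SE; limma, adjusted p = 0.0072), 1 of 10 genes beside 2.98% of all genes higher, and without K78I replicate 3 adjusted p was 0.0512. CCN2 and CCN1 differed there by 0.72 ± 0.34 and 1.29 ± 0.60 (SE; limma, adjusted p = 0.322 and 0.31).

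The same test was made against empty pBABE. In A549, ANKRD1 rose by 2.60 ± 0.46, CCN2 by 2.25 ± 0.34, WWTR1 by 1.05 ± 0.20 and PTPN14 by 0.99 ± 0.19 (SE; limma, adjusted p = 0.00308, 0.00102, 0.00659 and 0.00527). These were 4 of 10 genes, beside 3.78% of all genes higher. In H2122, CCN2 rose by 1.84 ± 0.38 and PTPN14 by 1.30 ± 0.21 (SE; limma, adjusted p = 0.00915 and 0.00166), 2 of 10 genes beside 4.17% of all genes higher. Without pBABE replicate 2, which leaves 1 pBABE array, the CCN2 call was lost. CCN1 differed by 2.24 ± 0.67 (SE; limma, adjusted p = 0.0659). The comparisons with K78I and with pBABE share the LKB1 arrays.

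The kinase-dead and empty controls were also set against each other. In A549, 0 of the 10 genes and 0% of all genes passed between K78I and pBABE by limma. At an unadjusted p under 0.05 the count was 4 of 10 (ANKRD1, CCN1, CCN2 and AMOTL2, by 2.03, 1.39, 0.92 and 0.60), beside 472 of 17958 genes. K78I arrays had ANKRD1 levels of 6.71, 8.93 and 8.0, against 6.71, 4.98 and 5.86 on pBABE arrays, and both groups hold an array at odds with its STK11 level. In H2122, 0 of 10 genes and 0% of all genes passed between K78I and pBABE by limma, and CCN2, at 1.12 ± 0.38 (SE), was the 1 gene of the 10 with an unadjusted p under 0.05, beside 1260 of all genes.

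**Figure D2:**
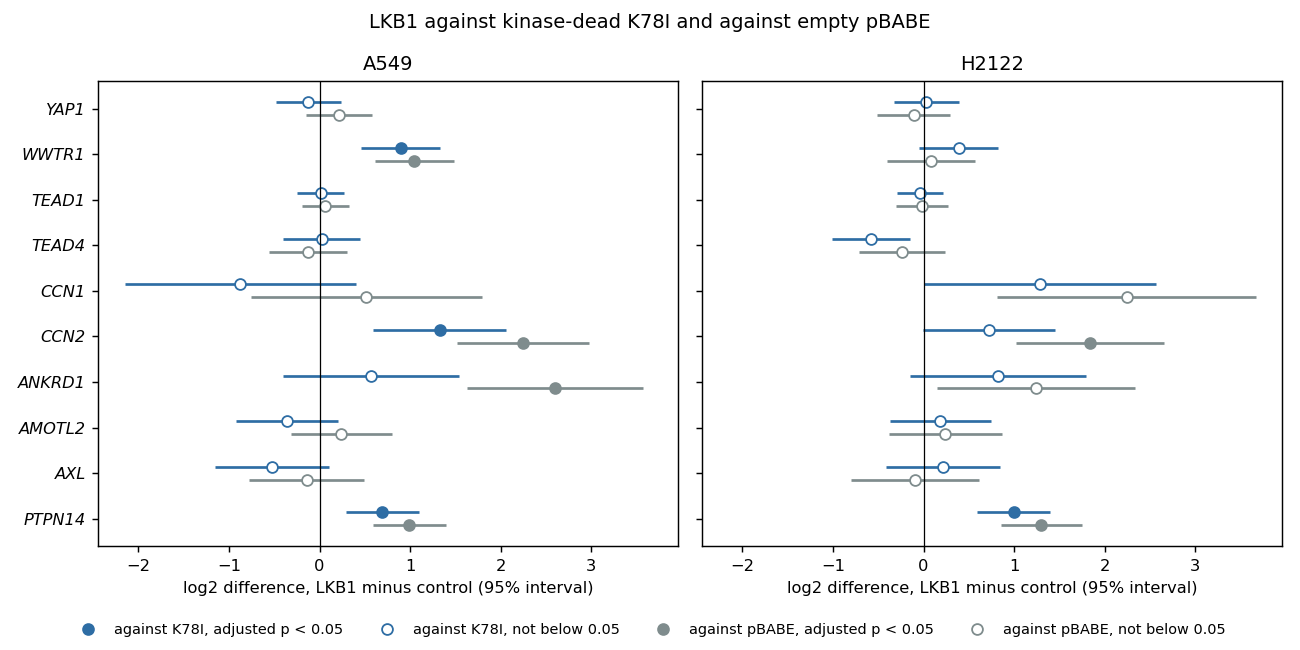
Log2 difference of LKB1 minus K78I or minus pBABE (horizontal axis, points with 95% intervals) for the 10 genes in A549 and H2122, with filled points at adjusted p under 0.05. A549 CCN2 is at 1.33 against K78I and 2.25 against pBABE, and A549 ANKRD1 at 0.57 and 2.60.

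Over both lines together 4 of the 10 genes rose, beside 8.25% of all genes higher. PTPN14 rose by 0.99 ± 0.12, CCN2 by 1.53 ± 0.21, ANKRD1 by 1.31 ± 0.29 and WWTR1 by 0.60 ± 0.13 (SE; limma, adjusted p = 6.34e-05, 0.000238, 0.00669 and 0.00547). With the 3 H2122 arrays grouped by source name WWTR1 still passed, and PTPN14, CCN2 and ANKRD1 did not (limma, adjusted p = 0.00801, 0.132, 0.106 and 0.123). Without those arrays, which leaves 1 H2122 pBABE array, ANKRD1 did not pass. The difference in the LKB1 effect between lines, A549 minus H2122, passed for 0 of the 10 by limma, beside 3.6% of all genes, with 2 of 10 at an unadjusted p under 0.05, beside 15% of all genes. These were WWTR1 at 0.74 ± 0.26 and CCN1 at −1.94 ± 0.75 (SE; limma, adjusted p = 0.158 and 0.212). So the call for WWTR1 in A549 alone is not shown to differ from H2122.

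The lines differed in level, most of all in AXL among the 10 genes. AXL had group means of 10.10 ± 0.18, 10.63 ± 0.76 and 10.24 ± 0.10 in A549 with LKB1, K78I and pBABE, against 5.47 ± 0.42, 5.25 ± 0.28 and 5.56 ± 0.27 in H2122 (SD, n = 3, and n = 2 for H2122 pBABE). No A549 array overlapped an H2122 array, and the difference was 4.89 ± 0.18 (SE; limma, adjusted p = 3.7e-12). The H2122 AXL levels lay around the array medians or below them, and with no detection calls this difference is not read as an exact fold. ANKRD1 was higher in A549 by 2.52 ± 0.27, CCN2 by 0.95 ± 0.21, TEAD1 by 0.51 ± 0.07, AMOTL2 by 0.49 ± 0.16 and TEAD4 by 0.32 ± 0.12, while PTPN14 was lower, at −0.89 ± 0.11 (SE; limma, all adjusted p under the threshold). The H2122 group means of ANKRD1, from 4.32 to 5.56, lay below the array medians, so its difference is not read as an exact fold either. YAP1, WWTR1 and CCN1 did not pass. These are 6 of 10 genes higher and 1 lower, beside 24.6% and 23.5% of all genes, and for AXL and TEAD1 the lines did not overlap, beside 9.66% of all genes. TEAD4 lost its call on leaving out any 1 of 10 single arrays (adjusted p 0.0503 to 0.17), namely replicates 2 and 3 of A549 LKB1, 1 and 3 of A549 K78I, 2 and 3 of A549 pBABE, 2 of H2122 LKB1, 2 and 3 of H2122 K78I and 2 of H2122 pBABE. AMOTL2 lost it without H2122 pBABE replicate 1, which leaves 1 array in that group.

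The array labelled A549 K78I replicate 2 stands apart. Of the A549 arrays it held the highest level of YAP1, TEAD1, CCN1, ANKRD1, AMOTL2 and AXL, 6 genes in all, and the lowest of TEAD4. STK11 was at 7.14 there. The mean of 9 cell cycle genes lay 0.72 below the line mean there, and 1.42 below it on H2122 pBABE replicate 2, which held the lowest level of 5 of the 10 in H2122. The part of these in the results was not tested. Without A549 K78I replicate 2, A549 CCN1 differed by 0.23 ± 0.39 (SE; limma, adjusted p = 0.832) and ANKRD1 by 1.85 ± 0.34 (SE; limma, adjusted p = 0.00305). The 3 controls lowest in cell cycle genes, chosen after seeing the data, were A549 K78I replicate 2, A549 pBABE replicate 1 and H2122 pBABE replicate 2. Without them H2122 CCN1 differed by 1.46, with 1 pBABE array left in H2122. A549 CCN1 then differed by 0.50 and did not pass.

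**Figure D3:**
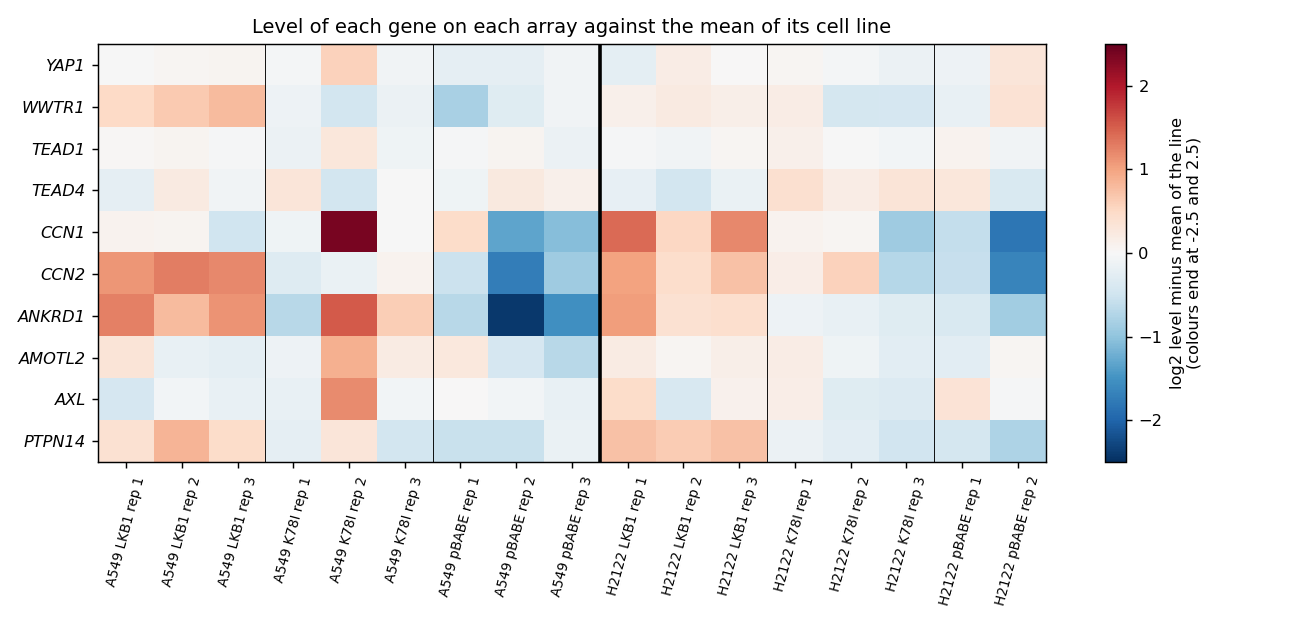
Log2 level of each gene on each array minus the mean of its cell line (colour, from blue below to red above, ending at −2.5 and 2.5). A549 K78I replicate 2 is red for CCN1, ANKRD1 and AXL, and H2122 pBABE replicate 2 is blue for CCN1 and CCN2.

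How far the targets varied together is described by Pearson's r over the arrays of a line, which hold the same constructs, so that a shared response to LKB1 enters every value. CCN1 with CCN2 had r = 0.96 over 8 H2122 arrays and 0.25 over 9 A549 arrays, or 0.56 without K78I replicate 2. CCN1 with PTPN14 had 0.94 in H2122 and 0.29 in A549. CCN2 with ANKRD1 had 0.88 in H2122 and 0.85 in A549, and CCN2 with PTPN14 0.85 in H2122 and 0.82 in A549. Pairs with AXL and AMOTL2 varied more. CCN2 with AXL had 0.17 in H2122 and −0.17 in A549, and PTPN14 with AXL 0.19 and 0.10. CCN2 with AMOTL2 had 0.48 in H2122 and 0.23 in A549. CCN1 with AMOTL2 had 0.57 in H2122 and 0.92 in A549, and CCN1 with AXL 0.30 and 0.82. The remaining pairs are not listed here. Over all 17 arrays, centred within lines, the gene most like PTPN14 was TRIO (r = 0.99), a guanine nucleotide exchange factor, followed by FRMD6 and SMURF2 (both 0.96). CCN2 was followed by ICA1L (0.95) and TJP1 (0.93), ANKRD1 by ELOVL7 (0.93), and CCN1 by GADD45A (0.97). WWTR1 was followed by LHFPL2 (0.92), and TEAD4 by SRM and MRPS2 (both 0.96). 

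Other genes of the pathway were read from lists. Counts and differences are for LKB1 against the mean of the controls unless K78I or pBABE is named. By that comparison 5.49% of all genes rose and 2.95% fell in A549, and 4.99% rose and 2.29% fell in H2122. A list of 22 YAP and TEAD targets, which contains 6 of the 10 genes and was written from memory, had 8 members higher and 0 lower in A549 (median 0.09) and 8 and 0 in H2122 (median 0.76), beside medians of −0.02 and −0.04 over all genes. Without those 6, 5 of 16 rose in A549 and 6 of 16 in H2122. Against K78I alone, 7 of the 22 rose in A549 (median −0.07) and 3 in H2122 (median 0.46), beside 3.56% and 2.98% of all genes higher. Against pBABE, 8 and 7 of the 22 rose, beside 3.78% and 4.17%. The matrix protein CCDC80 rose by 3.66 and the RNA-binding RBMS3 by 1.97 in A549. The ecto-nucleotidase NT5E rose by 2.10 and the AMPK-related kinase NUAK2 by 1.92 in H2122. ARHGEF17, a guanine nucleotide exchange factor, rose by 0.71 in A549 and 0.54 in H2122.

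**Figure D4:**
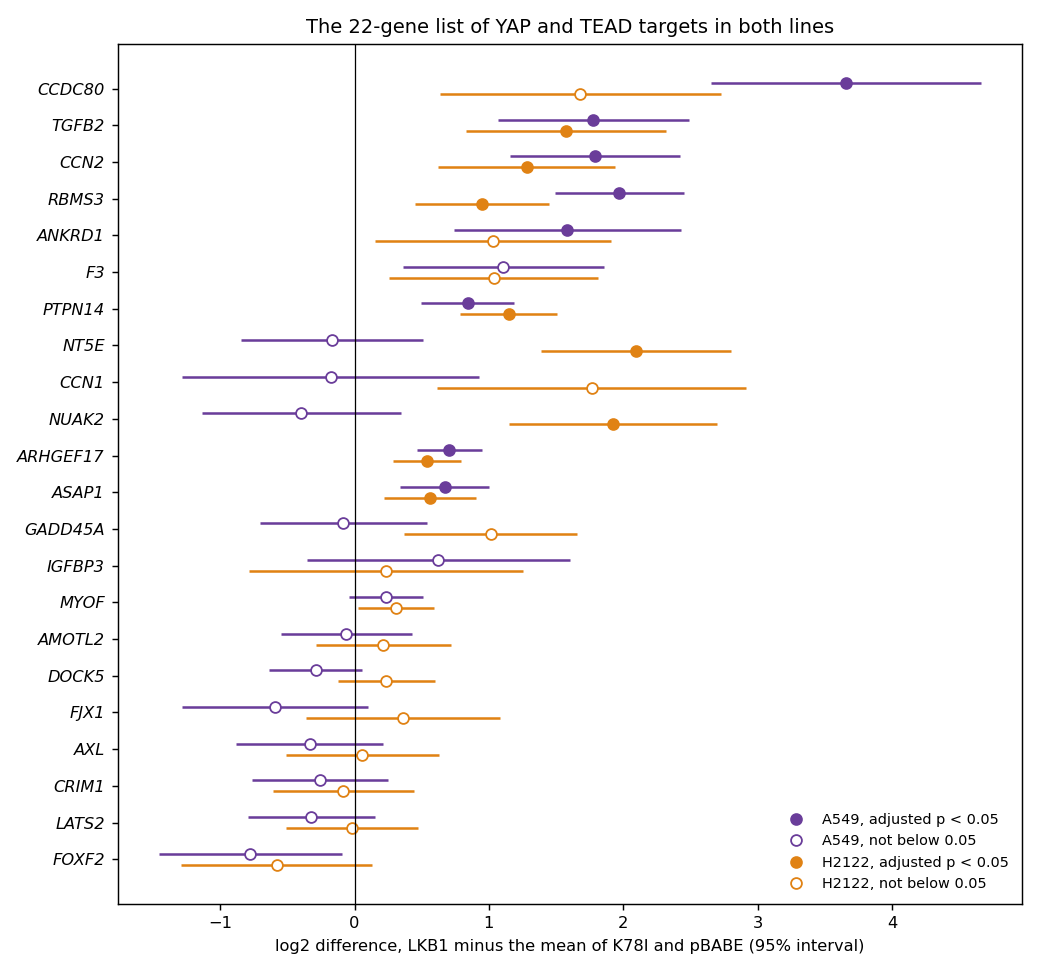
Log2 difference of LKB1 minus the mean of K78I and pBABE (horizontal axis, points with 95% intervals) for the 22 listed YAP and TEAD targets in A549 and H2122, with filled points at adjusted p under 0.05. In each line 8 points are filled, all to the right of 0.

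Hippo kinases and scaffolds rose for 4 of 13 in A549 and 1 of 13 in H2122, beside 5.49% and 4.99% of all genes. In either line 0 of them fell. Those that rose were STK38L by 1.06, MAP4K4 by 0.75, MOB1A by 0.50 and STK38 by 0.32 in A549. In H2122 STK38L rose by 0.74. The same shares of all genes stand beside the counts that follow. LATS1 and LATS2, which phosphorylate YAP, did not pass. Of 16 measured upstream and junction regulators, 4 rose and 1 fell in A549 and 6 rose in H2122. FRMD6, an upstream FERM-domain protein, rose by 1.80 in A549 and 2.25 in H2122, and the junction scaffold TJP1 by 0.62 and 0.41. NF2, the tumour suppressor merlin, rose by 0.83 in A549. The giant cadherin FAT4 fell by 1.01 in A549 and rose by 1.27 in H2122. Of the MARK kinases, 0 of 4 passed in A549 and MARK1 rose by 0.47 in H2122. Among 6 TEAD partners, TEAD2 rose in A549 by 0.84, and VGLL3 and VGLL1 in H2122 by 1.53 and 0.81.

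Genes that respond to actin dynamics and to TGF-beta, signals known to converge on some YAP targets, were read in the same way. Of all genes, 5.49% rose in A549 and 4.99% in H2122. Of 10 measured SRF and MRTF targets, 5 rose in A549 (median 0.44) and 6 in H2122 (median 0.70), TPM1 by 1.12 and 1.74. Against K78I alone 3 of these targets rose in A549 and 1 in H2122, beside 3.56% and 2.98% of all genes higher. Against pBABE 5 and 4 of them rose, beside 3.78% and 4.17%. Of 10 TGF-beta response genes, 4 rose in A549 and 6 in H2122, LTBP2 by 1.98 and 2.65, and TGFB1 by 2.36 in H2122. Of 7 fibroblast markers, PDGFRA alone rose in A549, by 0.78, and the summed linear level of the list was 114 to 145 on LKB1 arrays, against 105 to 117 on controls. In H2122 it was 106 to 114 on LKB1 arrays, against 103 to 119 on controls, with 0 called. Of 6 epithelial markers, CDH1 (E-cadherin) fell by 1.17 in A549 and 0 rose, with a list median of −0.13, and 0 passed in H2122. Of 9 cell cycle genes 0 passed in either line. The part of these in the results was not tested.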

How the data were processed

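RNA of 17 samples (130 ng each, per the labels' protocols) was hybridised to 1 Affymetrix array per sample. The authors deposited log2 levels; RMA and Affymetrix Expression Console 1.1 are named in the submitters' processing notes. RMA equalises distributions between arrays and would hide a change shared by most genes; array medians lay between 5.62 and 5.73. The sources used here do not give the build behind the probes; gene coordinates are those of RefSeq on GRCh38.p14. Of 33297 probe sets, 19181 had 1 symbol, 2055 several, and 12061 were not listed. For 895 genes with several probe sets the brightest was kept, which left 17958 genes.

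Groups followed the titles. Tests used limma 3.58.1 in R 4.3.3 (lmFit and eBayes over 6 groups, residual degrees of freedom 11, prior 3.8), with Benjamini-Hochberg adjustment over all 17958 genes and a threshold of 0.05. Intervals are 95%. Normal noise was simulated over 17958 genes for A549 LKB1 against the mean of K78I and pBABE. In it 67, 67 and 66 genes were shifted by 0.5, 1 and 2 log2 units, and 34.3%, 76.1% and 97% of them were called. In all 144 genes were called, against 1515 in the data, and the adjusted p depends on how many genes differ. The simulation also held no arrays at odds with their labels, so these shares are not the sensitivity of the test on the data. Lists are described by counts and medians. The 10 genes and all lists were chosen with earlier results of these data known. Named genes were the 10, STK11, up to 4 called genes per list, line and direction with the lowest adjusted p, and the genes most like each of the 10; others are named as chosen after their values were seen. The alternatives were grouping by source name, the replicate number as a block, omission of arrays, a filter on the dimmest 30% of genes, other scalings, probe set means, pooled controls, a fit per line, array weights and a trended robust prior; 3 that leave out arrays in doubt were chosen after seeing the data. Matplotlib 3.10.9 drew the figures.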

Additional observations from a re-analysis of the deposited data

Results flagged for a closer look

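The LKB1 effect differed between the lines, tested as A549 minus H2122 with limma, for 8 genes of the lists, beside 3.6% of all genes. These were 2 of 22 YAP and TEAD targets, 2 of 16 upstream regulators and 1 of 6 TEAD partners. The others were 1 of 10 SRF and MRTF targets, 1 of 10 TGF-beta response genes and 1 of 6 epithelial markers. Hippo kinases and scaffolds had 0 of 13 and MARK kinases 0 of 4. NT5E differed by −2.26 and NUAK2 by −2.32 (adjusted p = 0.0125 and 0.0184), FAT4 by −2.28 (adjusted p = 0.000558), VGLL3 by −2.02 (adjusted p = 0.0299), TGFB1 by −1.79 (adjusted p = 0.0087), CDH1 by −1.63 (adjusted p = 0.0271) and MYL9 by −1.05 (adjusted p = 0.00896). FAT1, named after its values were seen, differed by −0.81 (adjusted p = 0.0431). All 8 were lower in the A549 effect than in the H2122 effect. They follow the titles and were not recomputed with the H2122 arrays of conflicting source name regrouped or left out.

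For CCN1, every A549 LKB1 array lay below the mean of the K78I arrays of that line and every H2122 LKB1 array lay above the mean of its K78I arrays, a difference of −2.16 between the lines. This difference against K78I was not tested, and the A549 K78I mean includes the array labelled K78I replicate 2, at 10.67. The other A549 K78I arrays stood at 8.19 and 8.28, below 2 of the 3 LKB1 arrays, and without that array CCN1 differed from K78I by −0.06 in A549. Against the mean of both controls the difference between lines had adjusted p = 0.212 with limma.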

How the results depend on the processing

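Across 31 settings, 17 of which leave out 1 array, 3300 values of the 10 genes were recomputed. Of these, 79 lost a call and 46 gained one. Direction was compared only where the main fit or the alternative passed, and there 0 reversed. Differences that passed in neither fit could change sign uncounted. A549 CCN1 against the mean of controls was −0.18 in the main fit and 0.12 without the 2 A549 arrays at odds with STK11. Leaving out 1 array gave these counts of the 10 called: A549 LKB1 against the mean of controls 3 to 4, against K78I 0 to 3, against pBABE 4 to 4; H2122 LKB1 against the mean 1 to 3, against K78I 0 to 1, against pBABE 1 to 3; K78I against pBABE 0 in A549 and 0 to 1 in H2122; mean over lines 4 to 5; difference between lines 0; A549 against H2122 6 to 9. Grouped by source name, 2 were called for A549 against the mean of controls and 1 against K78I, 0 for H2122 against the mean, K78I or pBABE, and 1 over lines. Without the 3 H2122 arrays of conflicting labels, H2122 had 1 against the mean and 0 against K78I and pBABE. Without the 5 arrays in doubt, H2122 had 1 against the mean and 1 against pBABE. Without the 2 A549 arrays at odds with STK11, or with arrays centred on their median, A549 had 1 against K78I. Pooled controls gave 1 for H2122 against the mean. Without the 3 controls lowest in cell cycle genes, H2122 had 4 against the mean and 3 against K78I. Each line fitted alone gave H2122 4 against the mean and 4 against pBABE, with CCN1 and ANKRD1 gained, while A549 lost ANKRD1 against the mean and PTPN14 against K78I (adjusted p = 0.106 and 0.157). Array weights gave H2122 5 against K78I and 1 against pBABE, and 2 for the difference between lines. The causes were not tested. Every fit that leaves out an H2122 pBABE array keeps 1 array in that group, which then has no spread of its own. The share of all genes called in each setting is not set beside these counts, so they are not read as results about the 10 genes alone.

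Same-numbered arrays correlated from −0.64 to 0.35 in A549 and from 0.064 to 0.42 in H2122. Of 17 arrays, 9 correlated best with their own number, and the count expected for unpaired arrays was not computed. These values do not settle whether the numbers pair samples, and the main fit did not pair them. With the replicate number as a block, A549 had 3 called against the mean, 2 against K78I and 4 against pBABE, H2122 2, 1 and 2, with 4 over lines and 0 for the difference; the A549 ANKRD1 difference then had adjusted p = 0.0605. No block was fitted for A549 against H2122. Precision is limited by 2 or 3 arrays per group, and levels near the low end have no detection call behind them.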
